A study of Mus musculus with 12 samples.

Results

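Mcpt8, S100a4, Ccl2, Ccl7, Thy1, Acta2, Tagln, Postn, Dcn and Lum are 10 mouse genes of stromal and inflammatory cells that were measured in embryonic stem cells (ESCs) grown on fibroblast feeder cells and in the cells derived from them. They were chosen with values of these libraries in view, Mcpt8, S100a4 and Ccl2 for being among the largest falls from ESC to the Eomes-negative day 3 cells. Their levels in ESC against the day 3 cells are therefore given as a description, with no p. Each gene corresponded to a single assembled locus, so that they make up 10 of the 80012 loci counted. Of these, 9 were among the 17922 loci tested, and Lum fell under the filter on low values.

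Poly(A) RNA was sequenced from 12 libraries, with 4 libraries in each of 3 groups that share the replicate numbers 1, 2, 5 and 6. All came from a single C57BL/6 ESC line, EomesEGFP, in which an enhanced green fluorescent protein (EGFP) cassette sits at the start of Eomes, which encodes a T-box factor active in mesendoderm. The ESC group was undifferentiated at day 0 and had been kept with serum and LIF on mouse embryonic fibroblasts. The day 3 groups came from hanging drop embryoid bodies of the same line and were sorted through a live gate into cells with the reporter (Eo+) and cells without it (Eo−). The sources used here do not say whether feeder cells were removed before RNA was taken from the ESC group, which was not sorted. Nothing in the labels says that replicates were separate derivations, so p-values measure the spread between these cultures.

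Feeder cells are growth-arrested embryonic fibroblasts that attach ESCs and supply LIF and matrix. Fibroblasts secrete fibrillar collagens and small leucine-rich proteoglycans, and in culture many of them build actin stress fibres with smooth muscle proteins. When stimulated, they also release chemokines that attract monocytes. In bulk RNA, fewer cells of a type and less RNA per cell cannot be told apart.

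Locus counts summed to 648413022 to 837308168 per library, and 3 counts, used as the floor of detection, came to 0.00368 to 0.00485 CPM (counts scaled to a common library size with TMM factors). Intervals and floors of this kind cover counting error only. The groups carried the markers of their labels. The 5 pluripotency markers (Pou5f1, Nanog, Zfp42, Esrrb and Dppa3) summed to 2370 to 3199 CPM in ESC and to 436 to 781 CPM in Eo+. The 6 mesendoderm markers (Eomes, T, Mixl1, Mesp1, Lhx1 and Gsc) summed to 95.7 to 299 CPM in ESC, 259 to 530 CPM in Eo− and 1782 to 3083 CPM in Eo+.

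Promoter sequence is shown for the 3 genes whose RefSeq start (build GRCm38.p6) lay within 37 bases of the start of the assembled locus, because the loci of all 3 were high in ESC. RefSeq promoters were at hand for 4 of the 10 genes, the fourth being Mcpt8, whose RefSeq start lay 150 bases inside its locus. Postn has another RefSeq start, 1842 bases before the start of its assembled locus, and that window is not shown. Each sequence is the 250 bases before the start on the coding strand, and capitals mark a TATA box (TATAAA, searched on both strands). S100a4 is taken from chr3:90603520-90603769 (+), Postn from chr3:54360857-54361106 (+) and Acta2 from chr19:34255374-34255623 (−).
S100a4: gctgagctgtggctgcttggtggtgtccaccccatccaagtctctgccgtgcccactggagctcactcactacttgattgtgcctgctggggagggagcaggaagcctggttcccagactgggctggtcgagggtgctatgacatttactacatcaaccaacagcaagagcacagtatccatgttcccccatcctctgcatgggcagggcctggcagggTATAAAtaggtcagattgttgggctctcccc
Postn: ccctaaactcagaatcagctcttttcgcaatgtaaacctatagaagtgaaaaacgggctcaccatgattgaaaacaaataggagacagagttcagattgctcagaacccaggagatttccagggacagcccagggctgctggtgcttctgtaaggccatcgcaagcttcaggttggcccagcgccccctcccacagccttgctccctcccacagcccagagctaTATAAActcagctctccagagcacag
Acta2: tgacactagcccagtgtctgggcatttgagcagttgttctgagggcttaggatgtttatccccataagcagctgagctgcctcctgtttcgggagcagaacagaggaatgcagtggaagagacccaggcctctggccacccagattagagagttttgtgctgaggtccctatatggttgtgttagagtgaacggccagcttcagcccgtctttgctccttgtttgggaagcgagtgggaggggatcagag

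The TATA box began 31 bases before the RefSeq start of S100a4 and 26 bases before that of Postn, and the Acta2 window held none. The RefSeq start of Acta2 lay 37 bases before the start of its assembled locus, and the bases between them were not searched. The window of the other Postn start, not shown, held no TATA match. Among 32851 promoter windows of the same length, 12.4% held this motif. The AP-1 motif TGANTCA matched in none of the 3 windows shown and in 6.75% of all windows. A match is a string of letters and not a bound site.

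Mcpt8 and S100a4 were abundant in ESC and nearly absent at day 3. Mcpt8, a granule protease of basophils, is encoded at chr14:56082153-56085347 (−). Its counts in ESC replicates 1, 2, 5 and 6 were 5325, 1413, 1911 and 1339, which is 6.74, 1.94, 2.57 and 2.10 CPM. In Eo− there were 1, 0, 4 and 0 counts, and in Eo+ no count in any of the 4 libraries. Against a floor of 3 counts per library, the ESC mean of 3.34 ± 2.29 CPM (SD, n = 4) was at least 775-fold higher than in Eo+. The mean rests on replicate 1, and was 2.20 CPM without it.

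S100a4, also called fibroblast-specific protein, is a calcium-binding protein encoded at chr3:90603770-90606045 (+). The same locus also holds the annotated gene Gm42674, whose reads cannot be separated. ESC libraries had 21.3, 8.09, 13.3 and 6.79 CPM. Eo− libraries had 0.0135, 0.0147, 0.00559 and 0.00926 CPM, and Eo+ libraries 0.0132, 0, 0.0161 and 0.00162 CPM. The ESC libraries lay far above all day 3 libraries, whose highest count was 11 against a lowest count of 4340 in ESC. The fitted log2 fold change was −10.04 in Eo− and −11.33 in Eo+, and at such low day 3 counts it depends on the prior count of the fit.

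The neighbours of both genes were read for comparison. S100a6, which starts 6.64 kb past S100a4, had 96.1, 83.3, 135 and 54.2 CPM in ESC and 3.10 to 8.02 CPM over the Eo+ libraries. S100a3, 1.07 kb on the other side, had 0.351 to 1.28 CPM in ESC and at most 0.115 CPM in any Eo− library. S100a5 had at most 0.0121 CPM in ESC. Near Mcpt8, the granzyme gene Gzme, 32.3 kb away, had 1.74, 0.546, 0.771 and 0.866 CPM in ESC, with a single count over the 8 day 3 libraries. The closer genes Ctsg and Mcpt4 had at most 7 and 1 counts in an ESC library. Gzme and these neighbours were chosen for their position or after their values were seen.

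Ccl2 and Ccl7 are chemokines for monocytes, encoded 8.26 kb apart on chromosome 11 (82035571 to 82037453 and 82045712 to 82047525, both on the plus strand). Ccl2 had 3.73, 0.784, 2.29 and 1.37 CPM in ESC, 0.0208, 0, 0.00979 and 0.00265 CPM in Eo−, and 0.0423, 0.00269, 0.0277 and 0.0178 CPM in Eo+. Ccl7 had 1.46, 0.338, 0.880 and 0.706 CPM in ESC. At day 3 it had counts in only 2 of the 8 libraries, 17 in Eo− replicate 1 and 4 in Eo+ replicate 6. All ESC libraries were above all day 3 libraries for both. Within ESC, Ccl2 exceeded Ccl7 by 2.55, 2.32, 2.60 and 1.94 times in CPM, so that the ratio moved by 1.34 times between libraries in which the levels moved by 4.76 and 4.33 times. The next chemokine genes of the cluster, Ccl11 and Ccl12, had at most 14 and 37 counts in an ESC library and none at day 3.

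Acta2 and Tagln were the most abundant of the 10 and did not vanish at day 3. Acta2 encodes smooth muscle alpha-actin (chr19:34241090-34255336, −) and Tagln encodes transgelin, an actin-binding protein (chr9:45929628-45936058, −). Acta2 had 125, 74.0, 216 and 40.2 CPM in ESC, 3.79, 5.01, 2.67 and 4.15 CPM in Eo−, and 2.57, 2.94, 2.88 and 4.08 CPM in Eo+. Tagln had 147, 190, 369 and 84.5 CPM in ESC, 21.5, 39.9, 18.6 and 45.2 CPM in Eo−, and 20.3, 39.3, 28.2 and 50.5 CPM in Eo+. No day 3 library reached the lowest ESC library for either gene. The log2 fold changes against ESC were −4.65 in Eo− and −4.97 in Eo+ for Acta2, and −2.56 and −2.41 for Tagln. ESC replicate 5 held the highest value of both, and without it the ESC means fell from 114 to 79.8 CPM for Acta2 and from 198 to 141 CPM for Tagln.

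Postn, Dcn and Lum encode proteins of the extracellular matrix. Postn (periostin, a matrix protein that binds integrins, chr3:54361109-54391053, +) had 5.61, 2.72, 7.94 and 3.95 CPM in ESC, 1.11, 0.973, 0.773 and 0.791 CPM in Eo−, and 1.28, 0.505, 2.66 and 0.769 CPM in Eo+. Eo+ replicate 5, at 2.66 CPM, came close to ESC replicate 2, at 2.72 CPM, but did not overlap it. The log2 fold change of Postn against ESC was −2.38 in Eo− and −2.13 in Eo+. Dcn and Lum encode decorin and lumican, small leucine-rich proteoglycans that bind collagen fibrils, and lie 47.3 kb apart on chromosome 10 (97479500 to 97518162 and 97565501 to 97572703, plus strand). Dcn had 0.848, 0.589, 0.716 and 0.459 CPM in ESC, 0.380, 0.415, 0.759 and 0.533 CPM in Eo−, and 0.0543, 0.102, 0.187 and 0.0275 CPM in Eo+. ESC and Eo− overlapped for Dcn, and Eo+ lay under both, with log2 fold changes against ESC of −0.36 in Eo− and −3.10 in Eo+. Lum had 198, 48, 89 and 117 counts in ESC, 47, 2, 25 and 22 in Eo−, and 1, 8, 10 and 2 in Eo+. ESC libraries stood above the others for Lum, although by a single count between ESC replicate 2 and Eo− replicate 1 (0.0660 against 0.0576 CPM). The third gene of that cluster, Kera, had no count in any library, which allows up to 3 counts in each.

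Thy1 was the exception in direction. It encodes a surface glycoprotein of fibroblasts, thymocytes and neurons (chr9:44043384-44048608, +). ESC libraries had 20.7, 9.18, 14.4 and 14.2 CPM, Eo− libraries 19.5, 21.2, 29.3 and 18.5 CPM, and Eo+ libraries 7.40, 8.59, 7.22 and 7.88 CPM. ESC replicate 1 lay among the Eo− values, while every ESC and Eo− library lay above every Eo+ library. The log2 fold change against ESC was 0.62 in Eo− and −0.86 in Eo+.

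**Figure D1:**
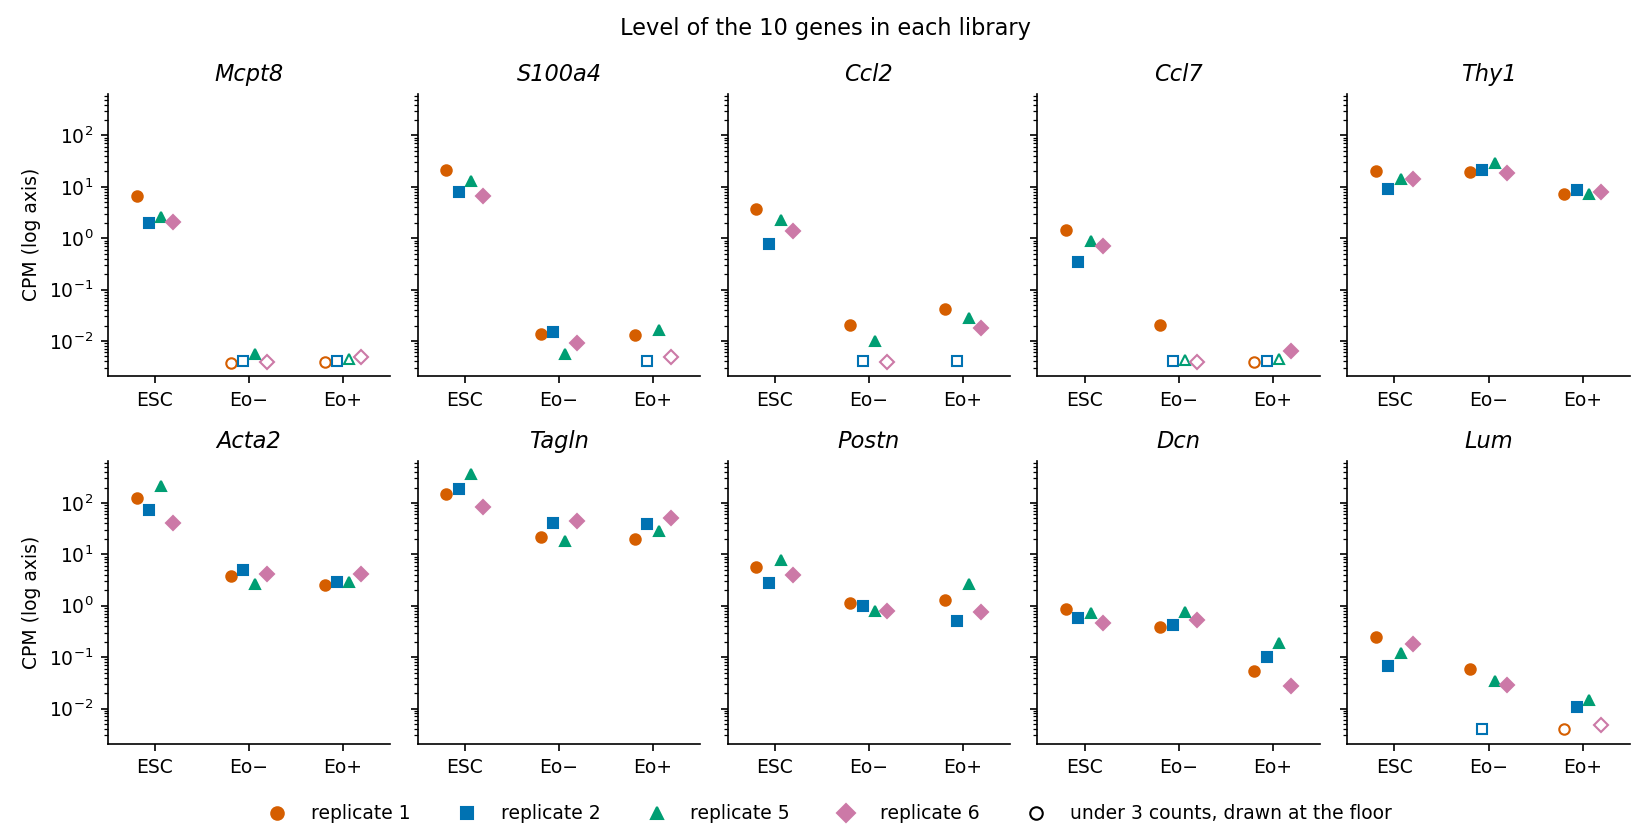
CPM on a log axis for each of the 10 genes in the ESC, Eo− and Eo+ groups, with 1 point per library and the marker giving the replicate number; open points stand for fewer than 3 counts and are drawn at the floor. Mcpt8, S100a4, Ccl2 and Ccl7 drop to at most 0.0423 CPM at day 3, Acta2, Tagln and Postn keep a lower level, Thy1 and Dcn overlap between ESC and Eo−, and Lum is low throughout.

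The 4 ESC libraries lay above the 4 Eo− libraries for 8 of the 10 genes, and above the 4 Eo+ libraries for all 10. Among all tested loci, 28.2% and 32.3% showed this, and 23.8% had ESC above all 8 day 3 libraries. In the fit, 8 of the 9 tested members were called in Eo− vs ESC (7 lower and Thy1 higher) and all 9 were called lower in Eo+ vs ESC. Of all tested loci, 62.2% were called in Eo− vs ESC (30.9% higher and 31.3% lower) and 71.9% in Eo+ vs ESC (35.8% higher and 36.1% lower). Nothing is read from these member counts, since the genes were chosen on the same libraries. The median log2 fold change of the members was −4.65 in Eo− and −4.97 in Eo+, against 0.02 and 0.00 over all loci, and both comparisons share the ESC libraries.

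Compared per length, the levels kept the same order in every ESC library. Mean FPKM (CPM per kilobase of exon) was 125 ± 77.0 for Tagln, 56.1 ± 37.7 for Acta2, 21.1 ± 11.2 for S100a4, 8.28 ± 2.67 for Thy1, 3.34 ± 2.29 for Mcpt8, 1.80 ± 1.13 for Ccl2, 1.06 ± 0.586 for Ccl7, 0.637 ± 0.285 for Postn, 0.312 ± 0.0801 for Dcn and 0.0746 ± 0.0385 for Lum (SD, n = 4). All 4 ESC libraries ranked the 10 genes in exactly this order. Across libraries, however, each neighbouring pair overlapped in FPKM, with the exception of Dcn and Lum. At day 3, Tagln remained first by mean, at 19.7 ± 8.33 FPKM in Eo− and 21.8 ± 8.29 FPKM in Eo+, and Thy1 came second, at 12.5 ± 2.79 and 4.40 ± 0.346 FPKM. Mcpt8 came last in both.

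The 10 genes did not rank the ESC libraries alike. Replicate 1 was highest for 7 of them (Mcpt8, S100a4, Ccl2, Ccl7, Thy1, Dcn and Lum), and replicate 5 for the other 3 (Acta2, Tagln and Postn). Of all tested loci, 24.3% were highest in ESC replicate 1 and 25.4% in replicate 5. Mcpt8, Ccl2, Ccl7 and Thy1 shared the full order 1, 5, 6, 2, found in 3.47% of all tested loci, and S100a4 and Dcn shared the order 1, 5, 2, 6, found in 6.29%. Replicate 2 was lowest for 6 genes and replicate 6 for 4. These orders are descriptions of 4 libraries, which are too few for a correlation.

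Ratios between genes within a library also differed from library to library. Replicate 1 had 2.02 times the ESC mean of Mcpt8, 1.83 times that of Ccl2 and 1.72 times that of S100a4, but 1.10 times that of Acta2 and 0.74 times that of Tagln. The ratio of S100a4 to Acta2 in CPM was 0.171, 0.109, 0.0615 and 0.169 in replicates 1, 2, 5 and 6, a range of 2.77 times. The ratio of S100a4 to Mcpt8 ranged over 1.63 times, that of S100a4 to Ccl2 over 2.08 times and that of Tagln to Acta2 over 2.19 times. The widest range, 3.56 times, was that of Dcn to Lum, although both genes were highest in replicate 1. Whether a single proportion between libraries describes the 10 genes was not tested.

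**Figure D2:**
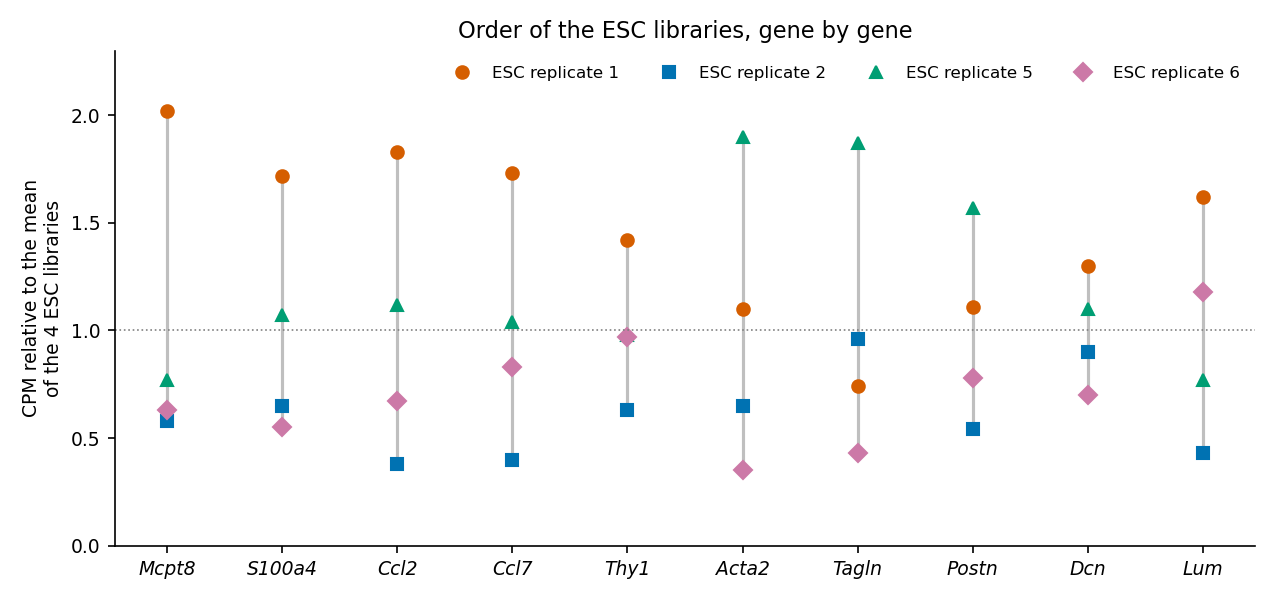
CPM of each gene in each ESC library divided by the mean of the 4 ESC libraries (linear axis from 0; the dotted line is the mean). Replicate 1 is the top point for Mcpt8, S100a4, Ccl2, Ccl7, Thy1, Dcn and Lum, and replicate 5 for Acta2, Tagln and Postn.

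Markers of the cell types that could hold these transcripts moved with them in part. The 8 fibroblast markers summed to 209, 104, 167 and 80.1 CPM in ESC replicates 1, 2, 5 and 6, the same order of libraries as S100a4 and Dcn, and to 12.6 to 23.7 CPM in Eo− and 22.8 to 39.9 CPM in Eo+. In each of the 3 groups the sum was highest in replicate 1. In ESC, 6 of the 8 exceeded 1 CPM, led by the collagen genes Col1a1 (66.3 ± 28.0 CPM) and Col1a2 (47.9 ± 23.8 CPM), whereas Fap and Dpt had means of 0.104 and 0.109 CPM. All 8 had a lower mean in Eo− than in ESC. In Eo+, Pdgfrb, a growth factor receptor of mesenchyme, was higher than in ESC, with means of 7.17 ± 0.692 CPM in ESC, 4.80 ± 0.614 CPM in Eo− and 11.9 ± 2.83 CPM in Eo+, and Twist2 had 1.56 ± 0.618, 0.419 ± 0.133 and 1.28 ± 0.421 CPM. The part of fibroblasts in the levels of the 10 genes was not tested.

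The 5 smooth muscle markers ranked the ESC libraries as Tagln did, with sums of 27.9, 29.5, 45.2 and 19.5 CPM. The day 3 sums of 15.0 to 23.0 CPM in Eo− and 14.5 to 17.9 CPM in Eo+ overlapped with ESC in Eo−. Most of this was Cnn1, at 23.9 ± 9.69 CPM in ESC and 17.1 ± 3.69 CPM in Eo−, while the defining markers Myh11 and Myocd had 0.979 ± 0.108 and 0.257 ± 0.0443 CPM in ESC. Myocd reached 3.52 ± 2.59 CPM in Eo+. Actg2 followed S100a4 and not Tagln in the order of ESC libraries, at 5.25, 2.38, 4.40 and 1.73 CPM, and had 0.0499 ± 0.0154 CPM in Eo−. The mesendoderm sum had the order of Tagln and of the smooth muscle sum, at 164, 173, 299 and 95.7 CPM. The part of either in Acta2 and Tagln was not tested.

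The 6 markers of basophils and mast cells were low in ESC, Hdc excepted. Fcer1a and Cpa3 had no count in any ESC library, and Ms4a2, Prss34 and Tpsb2 had ESC means of 0.00815, 0.0110 and 0.000344 CPM, against 3.34 CPM for Mcpt8. The list of 6 markers summed to 0.742 to 1.16 CPM in ESC, 0.627 to 0.956 CPM in Eo− and 0.736 to 1.67 CPM in Eo+, nearly all of it Hdc, the enzyme that makes histamine. None of the 6 had an ESC mean over 1 CPM. The 7 leukocyte markers summed to 4.34 to 6.83 CPM in ESC, 2.03 to 3.43 CPM in Eo− and 1.11 to 1.48 CPM in Eo+, and Ptprc, the pan-leukocyte phosphatase CD45, had 0.287 ± 0.0668 CPM in ESC. Replicate 6, the lowest ESC library for S100a4, Acta2, Tagln and Dcn, had the highest sum of both lists. The 4 endothelial markers summed to 38.8 to 71.0 CPM in ESC, most of it Pecam1, and to 15.6 to 92.4 CPM in Eo−.

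**Figure D3:**
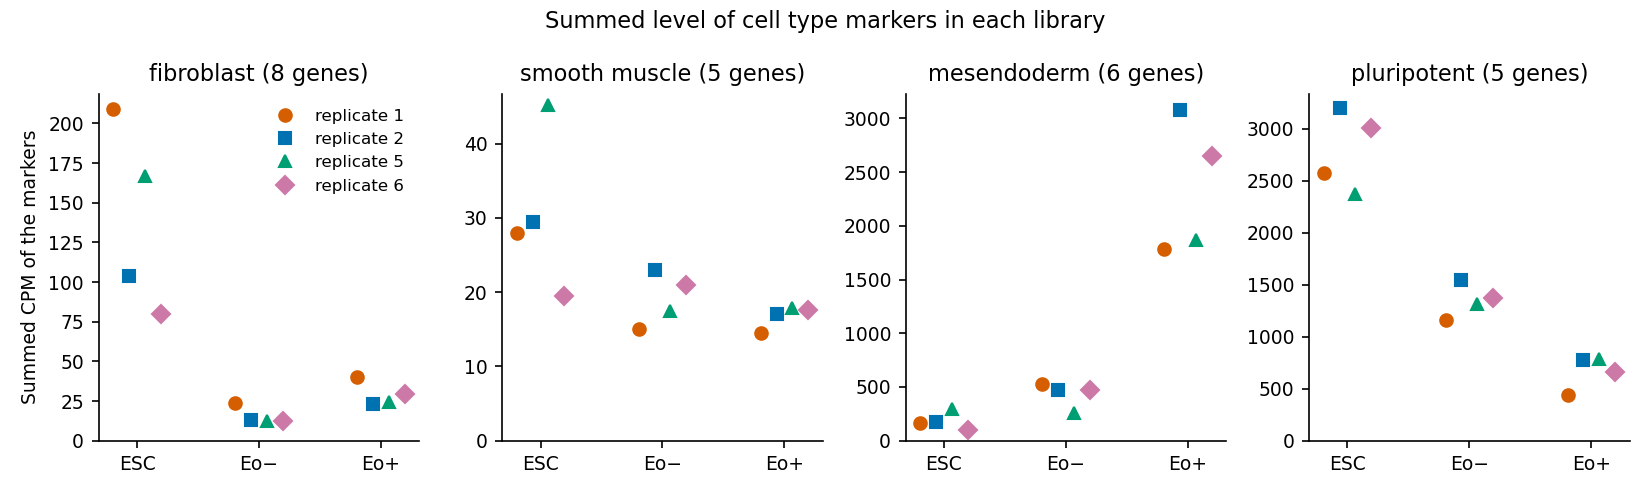
Summed CPM of the fibroblast, smooth muscle, mesendoderm and pluripotency markers in each library (linear axes from 0, with a separate scale per panel; 1 point per library). The fibroblast sum in ESC runs from 80.1 to 209 CPM with replicate 1 on top, whereas the smooth muscle and mesendoderm sums in ESC are highest in replicate 5.

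Eo+ and Eo− were then compared with each other, a comparison the choice of Thy1, Acta2, Tagln, Postn and Dcn did not use directly. Of these 5, Thy1 and Dcn were called lower in Eo+ and the other 3 were not called. Thy1 fell by 1.48 on the log2 scale (SE 0.22, limma adjusted p = 0.000127) and Dcn by 2.74 (SE 0.47, limma adjusted p = 0.000342), each with all 4 Eo+ libraries under all 4 Eo− libraries. Of all tested loci, 47.7% were called in this comparison, 23.0% higher and 24.6% lower in Eo+.

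For Acta2, Tagln and Postn the difference lay within 1 SE of 0. The log2 fold change of Eo+ over Eo− was −0.32 ± 0.80 for Acta2 (SE, limma adjusted p = 0.764), 0.15 ± 0.48 for Tagln (limma adjusted p = 0.816) and 0.25 ± 0.49 for Postn (limma adjusted p = 0.706). Mcpt8, S100a4, Ccl2 and Ccl7 entered the fit only through their ESC level, and the first 3 were chosen for their low level in Eo−. Their day 3 counts, of at most 32 in a library, are therefore given above with no test.

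Genes of the same kinds as the 10, none of them a member, were taken from 9 lists of 181 genes, of which 133 were tested. The lists were drawn up with earlier results of these data known. Some listed genes passed the filter only through the group in which they were high. Among them were Actg2, Col3a1 and Cd3e, through ESC, and Myocd, through Eo+. Nothing is read from their calls. Of the 133, 78 were called lower in both day 3 fractions than in ESC, a call made for 26.9% of all tested loci. In 48 of the 78, ESC replicate 1 was the highest ESC library, and in 19 replicate 5 was. Among all 4820 loci lower in both fractions, the shares were 27.2% for replicate 1 and 15.4% for replicate 5. Nothing is read from these list counts, since the lists were chosen with results of these libraries known.

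Most matrix genes lay with the members. Of 28 stromal matrix genes, 22 fell and 2 rose in Eo− vs ESC (median log2 fold change −2.03), and 20 fell and 3 rose in Eo+ vs ESC (median −1.60). Mgp, an inhibitor of matrix calcification, had 29.5 ± 17.9 CPM in ESC and 0.0980 ± 0.0559 CPM in Eo− (limma adjusted p = 2.10e-05), and Lox, the enzyme that crosslinks collagen, had 27.8 ± 17.5 and 0.185 ± 0.0696 CPM (limma adjusted p = 1.19e-05). The matrix glycoprotein Tnc had 51.9 ± 29.9 CPM in ESC, and in Eo− 2.20 CPM in replicate 1 and 0.247 to 0.417 CPM in the other 3 libraries. Col3a1, the chain of type III collagen, had 12.4 ± 4.02 CPM in ESC and 0.0625 ± 0.0402 CPM in Eo+. Of the 20 genes lower in both fractions, 15 were highest in ESC replicate 1.

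Among small leucine-rich proteoglycans other than Dcn and Lum, 5 of 10 were tested, 4 fell in Eo− and, in Eo+, 4 fell and Podn rose. All 4 that were lower in both were highest in ESC replicate 1. Biglycan (Bgn), the closest relative of decorin, had 87.1 ± 48.6 CPM in ESC, 0.612 ± 0.311 CPM in Eo− and 2.18 ± 1.18 CPM in Eo+, with log2 fold changes of −7.11 ± 0.72 and −5.38 ± 0.58 (SE, limma adjusted p = 2.01e-06 and 1.73e-06). Podn had 0.629 ± 0.180 CPM in ESC and 3.27 ± 0.944 CPM in Eo+ (limma adjusted p = 3.09e-06).

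Of 18 tested fibroblast surface genes and regulators, 12 fell and 2 rose in Eo−, and 8 fell and 5 rose in Eo+. Il1rl1, the receptor of interleukin 33, had 12.2 CPM in ESC replicate 1 and 1.62 to 4.82 CPM in the other 3 ESC libraries. In Eo− it had 0.329 CPM in replicate 1 and 0.0210 to 0.0648 CPM in the other 3. Ly6a had 4.94 ± 2.22 CPM in ESC and 0.428 ± 0.0953 CPM in Eo−. The actin-severing protein gene Gsn fell by 2.48 ± 0.42 in Eo− on the log2 scale (SE, limma adjusted p = 0.000186). Has2, which makes hyaluronan, rose by 2.13 ± 0.37 in Eo+ vs ESC (limma adjusted p = 0.000147). The largest change of the list in Eo+ vs ESC was that of Pdgfra, a growth factor receptor of mesoderm and fibroblasts, with 2.23 ± 0.818 CPM in ESC, 5.94 ± 2.21 CPM in Eo− and 94.8 ± 34.9 CPM in Eo+, a rise of 5.37 ± 0.47 in Eo+ vs ESC (SE, limma adjusted p = 2.40e-07). It was named after its values were seen, since its locus also holds Mir7025. Of 16 tested contractile genes other than Acta2 and Tagln, 8 fell and 1 rose in Eo−, and 9 fell and 4 rose in Eo+. Actg2, the smooth muscle gamma-actin, had 3.44 ± 1.66 CPM in ESC and 0.0499 ± 0.0154 CPM in Eo−, and Myl9, a myosin light chain, had 38.7 ± 16.5 and 15.5 ± 6.18 CPM. Actg2 passed the filter only through ESC, at a mean of 1.83 FPKM against 0.0266 in Eo− and 0.0825 in Eo+. Lmod1 fell by 2.86 ± 0.22 in Eo+ vs ESC (limma adjusted p = 7.10e-08). Myocd rose by 3.37 ± 0.70, but it passed the filter only through Eo+, so nothing is read from its call. Of the 7 contractile genes lower in both fractions, 4 were highest in ESC replicate 5 and 2 in replicate 1.

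Of 20 tested chemokines and inflammatory mediators, 11 fell and 2 rose in Eo−, and 11 fell and 4 rose in Eo+. Ptgs2, the inducible prostaglandin synthase, had 10.5 ± 6.26 CPM in ESC, 0.428 ± 0.256 CPM in Eo− and 0.216 ± 0.0519 CPM in Eo+ (limma adjusted p = 1.13e-05 and 4.48e-06). The growth factor gene Csf1 fell by 2.63 ± 0.39 in Eo−, and in Eo+ the chemokine gene Cxcl14 fell by 4.38 ± 0.34 and the cytokine gene Il33 by 2.62 ± 0.41. Cxcl12 went the other way in Eo−, from 6.77 ± 2.17 to 44.4 ± 3.60 CPM, a rise of 2.76 ± 0.28 on the log2 scale (SE, limma adjusted p = 1.83e-06). In Eo+ it had 7.77 to 9.50 CPM in 3 libraries and 22.9 CPM in replicate 5, and was not called against ESC (log2 fold change 0.72, limma adjusted p = 0.0539). Of the 12 tested leukocyte genes, 9 fell in each fraction and none was called higher, with Cd3e at 1.86 ± 0.304 CPM and Laptm5 at 34.6 ± 5.67 CPM in ESC and 0.117 ± 0.0343 and 4.35 ± 2.27 CPM in Eo−. Because Cd3e passed the filter only through ESC, nothing is read from its call. Cd68 fell by 1.43 ± 0.14 in Eo− and by 1.86 ± 0.15 in Eo+.

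Of 20 genes of matrix proteases, their inhibitors and growth arrest, 14 fell and 3 rose in Eo−, and 12 fell and 4 rose in Eo+. Igfbp7, a secreted binding protein, had 14.7 ± 7.90 CPM in ESC and 0.261 ± 0.0526 CPM in Eo− (limma adjusted p = 2.12e-06), and Timp1, an inhibitor of metalloproteases, had 70.5 ± 24.3 and 10.6 ± 0.807 CPM. Igfbp4, a binding protein of insulin-like growth factors, rose by 3.46 ± 0.32 in Eo+ vs ESC (SE, limma adjusted p = 4.38e-07). Of 10 tested S100 genes other than S100a4, 8 fell and 1 rose in Eo−, and 7 fell and 2 rose in Eo+. S100a6 had 92.1 ± 33.5 CPM in ESC and 5.10 ± 0.421 CPM in Eo− (limma adjusted p = 3.60e-07). S100a13 and S100a16 fell by 2.45 ± 0.33 and 1.81 ± 0.21 in Eo−, S100a16 fell by 2.09 ± 0.22 in Eo+, and S100a1 rose by 2.34 ± 0.22 in Eo+ (SE, all vs ESC).

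Only 4 of the 22 genes of mast cells, basophils and granzymes were tested, of which 2 were called lower in both fractions, Gzme and the mast cell protease gene Cma2, and 1 was called higher in Eo+, the eosinophil granule protein gene Prg2. Each of these 3 passed the filter only through the group in which it was high, so nothing is read from these calls. Cma2 had 0.836, 0.228, 0.326 and 0.236 CPM in ESC, the same order of libraries as Mcpt8, and 0 to 0.0227 CPM in Eo−. Mcpt9, under the filter and not tested, had 0.306, 0.105, 0.0994 and 0.146 CPM in ESC and at most 0.00140 CPM in a day 3 library, and Mcpt1 had means of 0.0357 CPM in ESC, 0.00519 CPM in Eo− and no count in Eo+. Prg2 had 0.299, 0.0833, 0.378 and 0.294 CPM in Eo+ and at most 0.0221 CPM in any other library. Gzme, Cma2, Mcpt9, Mcpt1 and Prg2 were named after their values were seen.

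**Figure D4:**
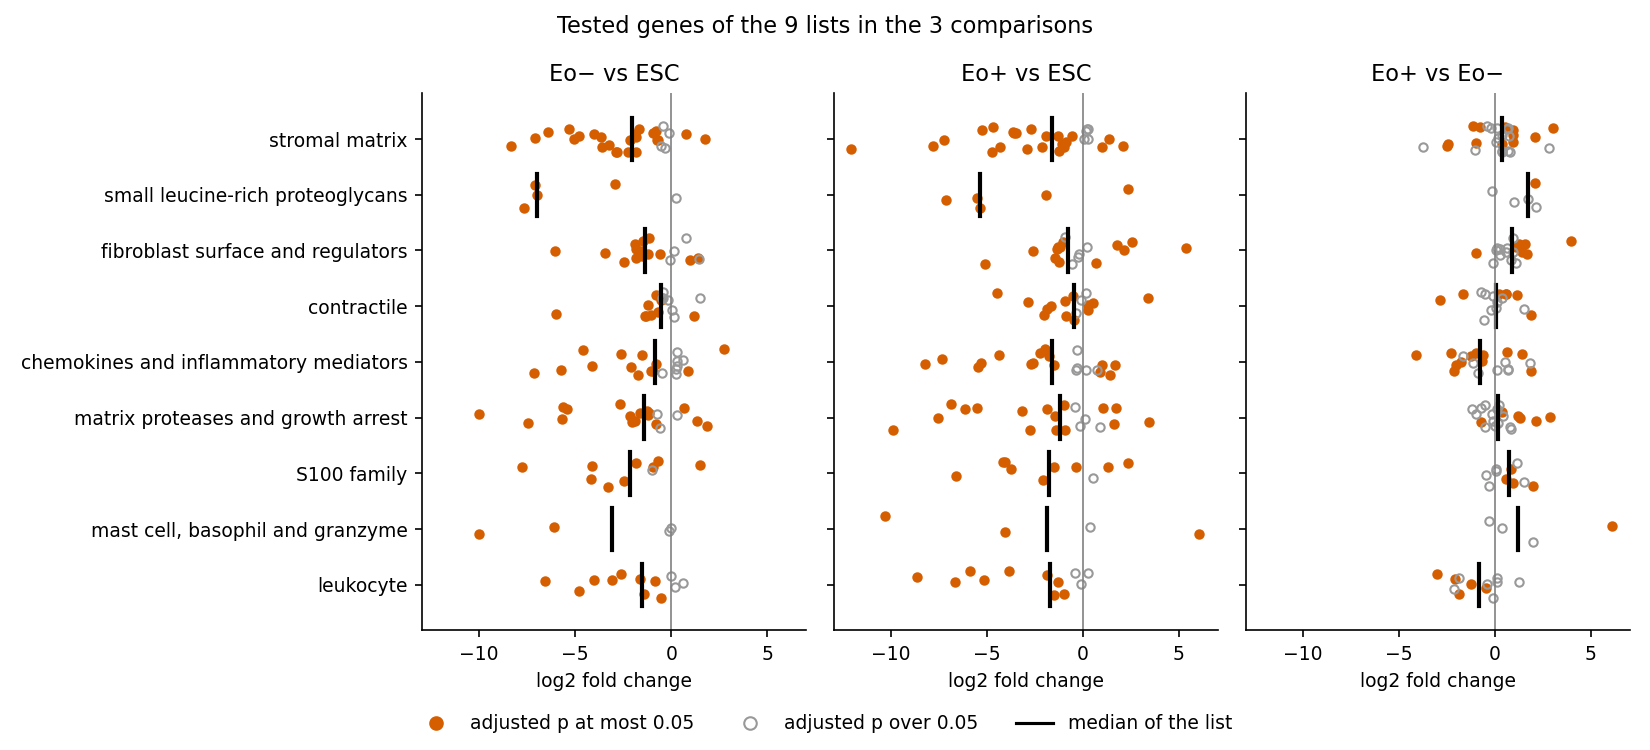
Log2 fold change (horizontal axis) of the tested genes in each of 9 lists for Eo− vs ESC, Eo+ vs ESC and Eo+ vs Eo−, with 1 point per gene, filled where the adjusted p was at most 0.05; the black bar is the list median and vertical scatter within a list only separates points. Medians lie under 0 in both comparisons with ESC for all 9 lists, from −0.48 to −6.98, and on both sides of 0 between Eo+ and Eo−.

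Between the day 3 fractions, the matrix, surface, contractile, chemokine and protease lists held calls in both directions, and the other lists in a single direction. Of all tested loci, 47.7% were called in this comparison, 23.0% higher and 24.6% lower in Eo+. Nothing is read from the list counts. In Eo+ vs Eo−, 7 stromal matrix genes were higher and 5 lower (median log2 fold change 0.38, against −0.01 over all loci). Fn1, the gene of fibronectin, rose by 2.11 ± 0.30 to 2103 ± 734 CPM (SE and SD, limma adjusted p = 7.50e-05), Fbln2 by 3.03 ± 0.60, and Thbs2 fell by 1.12 ± 0.28 (limma adjusted p = 0.00100 and 0.00557). Eo− and Eo+ libraries of the same number were taken as pairs, and with that number as a replicate block 19 of the 28 were called in place of 12.

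Of the proteoglycans, Podn was the only gene called, higher by 2.13 ± 0.26 in Eo+, and the block called 3. This count was 4 without ESC replicate 1, and 2 without Eo+ replicate 5 or without Eo− replicate 6. Fibroblast surface genes and regulators were higher in 6 cases and lower in 1, with Twist1 and Twist2, transcription factors of mesenchyme, up by 1.67 ± 0.27 and 1.60 ± 0.39 (limma adjusted p = 0.000213 and 0.00408) and Gsn up by 1.42 ± 0.45 (limma adjusted p = 0.0195). Pdgfra, again outside the naming rule, was up by 3.96 ± 0.39 (limma adjusted p = 4.28e-06). Contractile genes were higher in 5 cases and lower in 2, with Synpo2 down by −2.83 ± 0.20 on the log2 scale, Myocd up by 1.87 ± 0.58 with overlapping libraries, and Actn1 up by 1.19 ± 0.10. Since Myocd passed the filter only through Eo+, nothing is read from its call. Gsn lost its call without Eo− replicate 6 (limma adjusted p = 0.0504) and Myocd without Eo− replicate 2 (limma adjusted p = 0.0532).

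Proteases, inhibitors and growth arrest genes were higher in 5 cases and lower in 1, with Mmp9 up by 2.88 ± 0.41, Igfbp4 by 2.14 ± 0.29 and Mmp14 by 1.33 ± 0.12 (limma adjusted p = 7.71e-05, 6.21e-05 and 2.21e-06). The block called 10 in place of 6. Of the S100 genes, 4 were higher and none was called lower, among them S100a10 by 2.02 ± 0.23, S100a1 by 0.84 ± 0.18 and S100a13 by 0.97 ± 0.37 (limma adjusted p = 1.29e-05, 0.00206 and 0.0460). Chemokines and mediators were higher in 3 cases and lower in 9, with Cxcl12 lower by −2.03 ± 0.25, Lif by −1.22 ± 0.15 and Cxcl10 by −0.97 ± 0.37 on the log2 scale (limma adjusted p = 2.53e-05, 3.27e-05 and 0.0449). Leukocyte genes were lower in 5 cases, or 3 without Eo+ replicate 6, with Laptm5 down by −2.05 ± 0.41 and Cd68 by −0.43 ± 0.16, and none was called higher. In the mast cell list 1 gene was called, Prg2, which had passed the filter only through Eo+. The calls of S100a13, Cxcl10 and Cd68 were lost without any of several single libraries, with a limma adjusted p of 0.119, 0.107 and 0.0632 without Eo− replicate 6 and of 0.0606, 0.128 and 0.106 without Eo+ replicate 2.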

How the data were processed

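The authors mapped paired, stranded poly(A) reads to mm10 with STAR (version 2.0.4 in the submitters' processing notes), assembled transcripts with Cufflinks 2.2.1, merged them with the Ensembl annotation and used HTSeq 0.6.1 (union mode, by strand) to count reads at each locus. The deposited counts, whole numbers without scaling, were used here, and the authors' normalized table was not used. Alignments left uncounted made up 22.4% to 26.2% (multiple hits), 2.65% to 3.60% (between loci) and 0.0150% to 0.0193% (several loci) of HTSeq's tally and entered no library size. Of the loci, 357 had no position in the deposited annotation. There were 0 columns of other samples.

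Members were the loci whose transcripts matched the gene by name. The members and lists were chosen with earlier results of these data known. Loci with a mean FPKM over 0.1 in at least 1 group (14216 protein-coding, 993 annotated lncRNA and 2713 non-annotated lncRNA, with biotypes from GENCODE M21) were tested with limma 3.58.1 in R 4.3.3, using voom with TMM sizes from edgeR 4.0.16 over all 12 libraries, two-sided, with Benjamini-Hochberg adjustment and a threshold of 0.05. CPM and FPKM use the same sizes. FPKM divides by summed exon length. Alternatives were library totals, DESeq2 1.42.0 (size factors and Wald test), edgeR, other filters, all classes, a replicate block and each library left out. Scripts were tested on simulated data.

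Named are all members, per list and comparison the 3 called genes with the largest change and at least 1 CPM in the higher group, in a locus of a single gene, and the 10 protein-coding genes most alike, except that 1 gene is not reported here. Eo− and Eo+ libraries of the same number were taken to be paired: deviations from the group means correlated at 0.395, 0.177, 0.170 and 0.142 for numbers 1, 2, 5 and 6, and the study describes sets of differentiation, each with a library of every group. ESC libraries were not taken as paired, because their correlations with the same number ran from −0.084 to 0.198 (0.198 and 0.160 for numbers 1 and 2 with Eo−) and not all exceeded 0.1. The values reported come from the fit without the block, as in the study, and blocked counts are given where they differ by over 1.5 times.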

Additional observations from a re-analysis of the deposited data

Results flagged for a closer look

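Of 29 groups of 4 libraries, one per gene and group, 3 held a library far from the other 3. Chance flags about 1 in 20 groups of continuous values, a rate that does not apply where the other 3 libraries are at 0, as in both Ccl7 groups. Mcpt8 in ESC replicate 1 was 6.74 CPM (5325 counts), against 1.94 to 2.57 CPM in the other ESC libraries. Ccl7 in Eo− replicate 1 was 0.0208 CPM (17 counts), where the other 3 had no count. Ccl7 in Eo+ replicate 6 was 0.00647 CPM (4 counts), again against no count in the other 3. ESC replicate 1 and Eo− replicate 1 also had the highest sum of fibroblast markers in their group, 209 and 23.7 CPM, whereas Eo+ replicate 6 had 29.6 CPM against 39.9 CPM in Eo+ replicate 1, and the part of this in the values was not tested.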

How the results depend on the processing

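Over all results and alternatives, 2183 values were held (a test on the same side of its threshold and in the same direction, a count within 1.5 times, a level within 1 SD), 31 lost a call, 2 gained one, 31 moved further and 0 reversed. The count of members called in Eo+ vs Eo− was 2 (Thy1 and Dcn), and 1 with a filter of 1 CPM in 4 libraries, under which fewer genes were tested. It was 3 with the replicate block, on all or on the day 3 libraries alone, the third being Ccl2 (higher in Eo+ by 1.70 and 1.56 on the log2 scale), which accounts for both gained calls. Ccl2 was chosen on its Eo− level and entered through its ESC level, so nothing is read from this. That filter also left fewer calls for proteoglycans (1 in Eo− and 2 in Eo+ vs ESC), chemokines (7 and 8 vs ESC, 7 in Eo+ vs Eo−), the mast cell list (0 in all 3 comparisons, since none of its genes passed that filter) and leukocyte genes (5 in Eo− vs ESC). Without an FPKM filter, more low genes were tested, with 20 and 27 chemokines, 10 and 10 mast cell list genes called vs ESC, 3 of the latter in Eo+ vs Eo− and 2 proteoglycans there. DESeq2 and edgeR also called 2 proteoglycans in Eo+ vs Eo−. With the replicate block, the calls in Eo+ vs Eo− were 19 for matrix, 3 for proteoglycans and 10 for proteases. With the replicate block on the 8 day 3 libraries alone, chosen after seeing the data, they were 23, 2 and 12, with 11 each for surface and contractile genes and 2 for the mast cell list. The block changed the call of no other member in Eo+ vs Eo− and of no named gene against ESC, and moved no list count against ESC by over 1.5 times. Leaving out each library gave 1 to 4 proteoglycans and 3 to 5 leukocyte genes in Eo+ vs Eo−. Among single genes in Eo+ vs Eo−, Cxcl10, S100a13, Cd68, Gsn and Myocd lost the call when some library was left out. S100a13 also lost it with library totals, with the 1 CPM filter and without the FPKM filter, Cxcl10 without the FPKM filter, and Cd68 without the FPKM filter and with all classes of loci. Where no construction explains a change, the cause was not tested. Counts of 3 or fewer set the limit for Mcpt8, S100a4, Ccl2, Ccl7 and Lum at day 3, where fitted fold changes depend on the prior count.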

Other observations

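The profile of the 8 members with ESC above all day 3 libraries (all but Thy1 and Dcn) was compared with 11302 protein-coding loci by Pearson's r of log2(CPM + 0.01) over the 12 libraries, which fall into the same 3 groups for every gene. The genes most like it included Klf5 (r = 0.993), Tm4sf1 (0.991), Lox (0.991), Mdm2 (0.991), Gm2115 (0.991), Ipmk (0.990), 1810013L24Rik (0.990), Slc30a1 (0.989) and Itga11 (0.989). Each of these was highest in ESC replicate 1, an order that the choice by likeness to the members partly fixes. With a pseudocount of 0.1, Tm4sf1, Lox, Gm2115 and Itga11 remained among the first 10.

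They fall into genes nearly absent at day 3 and genes that kept a level. Tm4sf1, a tetraspanin-like membrane protein gene, had 9.74, 3.58, 5.19 and 3.11 CPM in ESC and 0.0361 ± 0.0201 CPM in Eo− (SD, n = 4). The collagen-binding integrin gene Itga11 had 6.63, 2.21, 2.77 and 1.86 CPM in ESC and 0.0707 ± 0.0128 CPM in Eo−, and Gm2115 4.10, 1.35, 1.72 and 0.997 CPM and 0.00351 ± 0.00284 CPM. By contrast Klf5, a transcription factor gene of ESCs, had 137 ± 16.5 CPM in ESC and 16.8 ± 4.33 CPM in Eo−, and Mdm2, the ubiquitin ligase of p53, had 168 ± 21.9 and 67.8 ± 7.24 CPM. In ESC replicate 1, Mdm2 had 196 CPM, against 145 to 172 CPM in the other ESC libraries.

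Cdkn2a, a growth arrest gene named here after its values were seen, had 8.15 CPM in ESC, 1.96 CPM in Eo− and 1.40 CPM in Eo+ by mean, and was highest in ESC replicate 5.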
